A study of Homo sapiens with 8 samples.

Results

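The 9 genes described here code for proteins of the tight junction, the belt near the top of an epithelial sheet that closes the space between neighbouring cells. They are CLDN1, CLDN4, CLDN7, CLDN12, OCLN, F11R, TJP1, TJP3 and CGN, chosen by name as members of the junction. The choice was made with earlier results of these data known. All 9 were found among the 14528 genes with a symbol, through 15 of the 24812 listed transcripts. RNA was sequenced from SQ20B cells, an established line from a squamous cell carcinoma of the human larynx, in normoxia (4 libraries; the labels do not give the oxygen level) and after 16 h in 0.5% O2 (4 libraries). The table analysed holds 1 FPKM value per transcript and condition, the authors' value over the libraries of that condition. An FPKM value is a fragment count corrected for transcript length and for the number of reads mapped. With 1 value per condition there is no spread between replicates, so no test was run and no difference below carries an error or a p-value. The study calls the 4 libraries of a condition biological replicates, and their single values were not analysed here.

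A tight junction is built from strands of transmembrane proteins held by a plaque of scaffold proteins on the cytoplasmic side. Claudins form the strands and set which ions and solutes pass, occludin (OCLN) belongs to a second family with a MARVEL domain, and the junctional adhesion molecule F11R is an immunoglobulin-type protein at the same contacts. The zonula occludens proteins ZO-1 (TJP1) and ZO-3 (TJP3) bind the tails of these proteins through PDZ and other domains and tie them to actin, and cingulin (CGN) joins the plaque to myosin and to ZO-1. In squamous epithelium such as that of the larynx, CLDN1, CLDN4 and CLDN7 are familiar members, and the junction also takes part in polarity and growth control.

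The tails that the scaffolds hold differ between these genes. The last 30 coding bases, read from the GRCh37 genome (the same coordinates as hg19) on the coding strand of the canonical GENCODE transcript, are shown to set the 4 claudins and F11R beside each other. The capitals mark the last 2 codons before the stop codon.
CLDN1, chr3:190026066-190026095, minus strand: gcaccttccagcgggaaagacTACGTGtga
CLDN7, chr17:7163693-7163722, minus strand: aagtccaactcttccaaggagTATGTGtga
CLDN4, chr7:73246132-73246161, plus strand: cgctctgctgctgccagcaacTACGTGtaa
F11R, chr1:160968661-160968690, minus strand: ttcaaacagacctcgtcattcCTGGTGtga
CLDN12, chr7:90042696-90042725, plus strand: gacattccagtagtttcacacACCACTtaa
CLDN1, CLDN7 and CLDN4 end in tyrosine and valine, the ending of claudins that bind the first PDZ domain of ZO proteins, and F11R ends in leucine and valine. CLDN12 ends in a pair of threonines and lacks that ending. The coding sequence of CLDN4 and of CLDN12 lies in 1 exon, that of CLDN1 and CLDN7 in 4 exons each.

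The levels of the 9 genes spanned from 0.372 to 203 FPKM in normoxia, and none differed between the conditions by 1.5-fold. FPKM values were summed over the listed transcripts of a gene, and a change is log2((hypoxia FPKM + 0.1)/(normoxia FPKM + 0.1)), which understates the change of genes with low FPKM. Genes with a mean of at least 0.5 FPKM were compared, 12106 in all and 8 of the 9 described here, TJP3 lying below. Of these 8 genes, 0 were higher and 0 were lower in hypoxia past 1.5-fold, against 9.95% of all genes compared that were higher and 11.2% that were lower. Past 1.2-fold, 1 gene was higher (CGN) and 1 was lower (CLDN7), against 23.8% and 33.0% of all genes. The other 6 lay within 1.2-fold. The median change of the 8 genes was 0.19, from -0.31 to 0.38, beside a median of -0.07 over all genes compared. A change above 0 was found for 5 of the 8 (62.5%) and for 43.6% of all genes. In whole-culture RNA, fewer cells making a transcript and less of it per cell cannot be told apart.

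**Figure D1:**
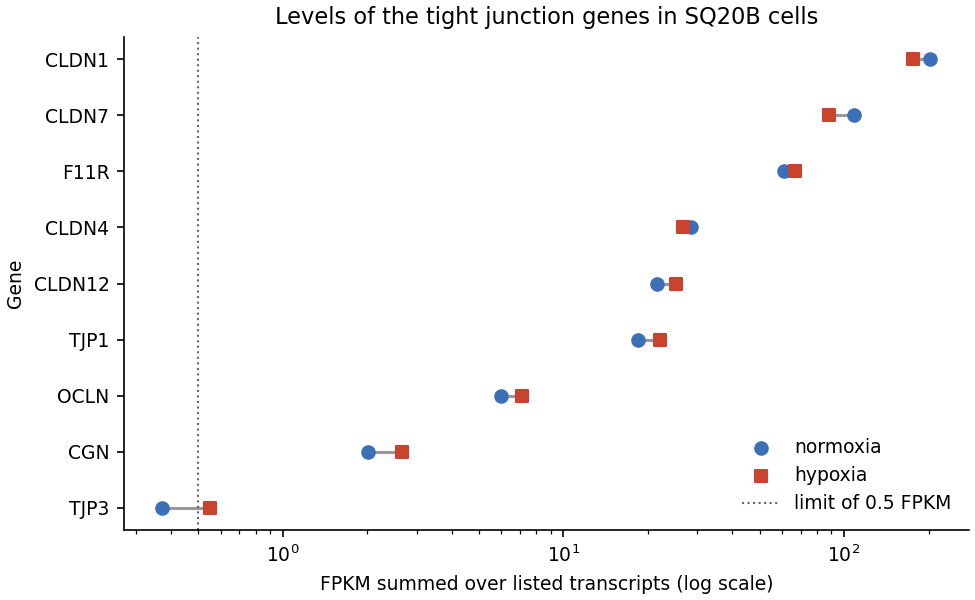
Levels of the 9 tight junction genes, as FPKM summed over the listed transcripts of each gene on a log scale, with 1 value for normoxia (circles) and 1 for hypoxia (squares), each the authors' value over 4 libraries. CLDN1 stood highest in both conditions, 203 and 176 FPKM, and TJP3 lowest, 0.372 and 0.550 FPKM, and the symbols of the 2 conditions lie close together for each gene on this scale.

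The order of the levels was the same in both conditions: CLDN1, CLDN7, F11R, CLDN4, CLDN12, TJP1, OCLN, CGN and TJP3. Whether neighbours in this order differ beyond the spread between libraries was not tested, since that spread was not analysed here. CLDN4 and CLDN12 drew nearer to each other, with a ratio of 1.33 in normoxia and 1.05 in hypoxia, and CLDN12 and TJP1 were close in both, at 21.5 and 18.5 FPKM in normoxia and 25.3 and 22.1 FPKM in hypoxia. CLDN1 lay above 96.6% of all genes compared in mean FPKM and CLDN7 above 92.7%. CGN lay above 22.3%.

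Among the claudins, the 3 most abundant had lower FPKM in hypoxia and CLDN12 had higher. CLDN1, the principal claudin of the epidermal barrier, is on chromosome 3 (190023496 to 190040235 in GRCh37, minus strand) and was listed with 1 transcript, NM_021101. Its level was 203 FPKM in normoxia and 176 in hypoxia, a change of -0.21 or 1.16-fold lower. CLDN7, which is also found along the lateral membrane of epithelial cells, is on chromosome 17 (7163222 to 7167302, minus strand). Its level was 109 FPKM in normoxia and 88.1 in hypoxia, a change of -0.31 or 1.24-fold lower, the lowest change of the 9 genes. A processed pseudogene of CLDN7, CLDN7P1, lies on chromosome X (40619357 to 40620523), and how its reads were shared was not tested. CLDN4, a receptor for an enterotoxin of Clostridium perfringens, is on chromosome 7 (73213872 to 73247020, plus strand) and was listed with NM_001305 alone. Its level was 28.6 FPKM in normoxia and 26.6 in hypoxia, a change of -0.10. CLDN12 is on the same chromosome (90013035 to 90142716, plus strand), and its 3 transcripts summed to 21.5 FPKM in normoxia and 25.3 in hypoxia, a change of 0.23. Of all genes compared, 29.2% had a change below that of CLDN7, 37.4% below that of CLDN1, 46.9% below that of CLDN4 and 74.1% below that of CLDN12.

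The direction of the lower claudins depended on how the conditions were scaled. Over all listed transcripts the normoxia column adds up to 536005 FPKM and the hypoxia column to 458431, a log2 ratio of -0.23. With the columns divided by these sums, the median change of all genes moved from -0.07 to 0.15, and past 1.5-fold 2204 genes were higher and 601 lower, in place of 1204 and 1361. CLDN1 then had a change of 0.017 and CLDN4 of 0.12, both above 0 but below that median, and CLDN7 had -0.080. With the columns quantile normalized, CLDN1 had 0.070, CLDN4 0.051 and CLDN7 -0.062, beside a median of 0.015. CLDN7 was thus below 0 under all 4 scalings in use (as deposited, centred on the median, quantile normalized, equal sums), and CLDN12, OCLN, F11R, TJP1, TJP3 and CGN were above 0 under all 4. Abundant genes as a whole had lower FPKM in hypoxia: the median change was -0.29 over the 864 genes with a mean of at least 100 FPKM, the band of CLDN1, and -0.20 over the 1966 genes from 30 to 100 FPKM, the band of CLDN7 and F11R. It was -0.08 over the 4837 genes from 5 to 30 FPKM, which hold CLDN4, CLDN12, OCLN and TJP1, and 0.09 over the 4439 genes from 0.5 to 5 FPKM, which hold CGN. CLDN1 lay above the median of its band, and CLDN7 and CLDN4 below that of their own, each between the quartiles. F11R lay above the upper quartile of its band (0.02), as did CLDN12, OCLN and TJP1 in theirs (0.20). CGN lay between the median and the upper quartile of its band (0.42).

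**Figure D2:**
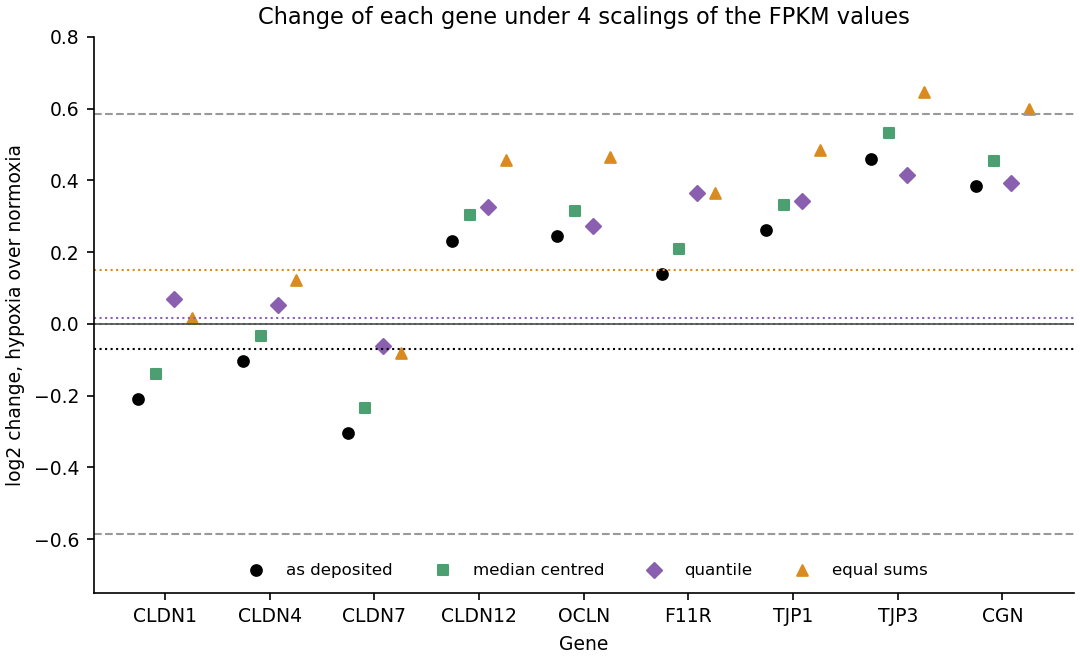
log2 change (hypoxia over normoxia) of each of the 9 genes with the FPKM values as deposited, centred on the median of all genes, quantile normalized, or divided by the column sums; dotted lines in the same colours give the median of all genes compared and dashed lines 1.5-fold. CLDN1 and CLDN4 cross 0 between scalings, and with equal sums CGN (0.60) and TJP3 (0.64) pass the upper dashed line.

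Shares within a family do not depend on a factor applied to a whole column, such as equal sums. The 11 claudins with a listed transcript summed to 375 FPKM in normoxia and 328 in hypoxia. CLDN1 made up 54.1% of this total in normoxia and 53.6% in hypoxia, and CLDN7 29.0% and 26.9%. CLDN4 made up 7.62% and 8.11%, and CLDN12 5.73% and 7.70%. The ratio of CLDN1 to CLDN12 went from 9.44 in normoxia to 6.95 in hypoxia, while that of CLDN1 to CLDN7 was 1.86 and 1.99. The 4 claudins described here held nearly all FPKM of the 11 listed claudins in both conditions, but they were chosen with earlier results of these data known. The share differed by 1.97 percentage points for CLDN12 and by -2.17 for CLDN7.

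**Figure D3:**
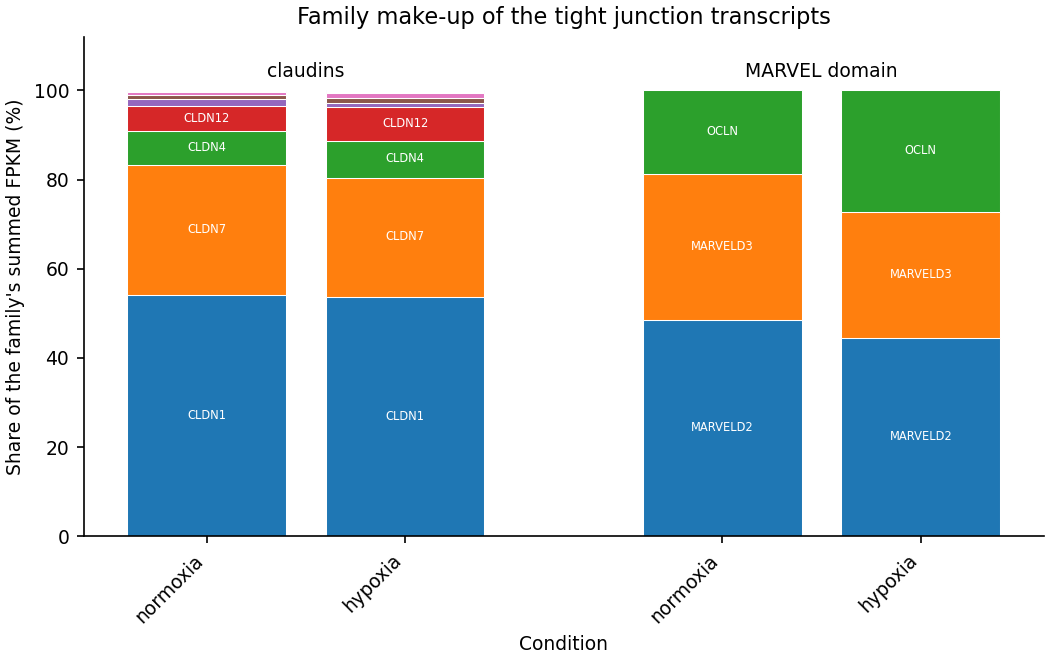
Share (%) of each gene in the summed FPKM of its family in normoxia and in hypoxia. The families are the 11 listed claudins and the 3 MARVEL domain genes. Shares are stacked, segments under 5% carry no name, and the smallest claudin shares may be too thin to see. CLDN1 and CLDN7 fill most of the claudin bars, and OCLN takes 18.7% of the MARVEL bar in normoxia and 27.2% in hypoxia.

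In the values as deposited, the other transmembrane genes had higher FPKM in hypoxia by less than 1.2-fold. OCLN, on chromosome 5 (68788119 to 68853931, plus strand), had 5.99 FPKM in normoxia and 7.11 in hypoxia, a change of 0.24. Its relatives in the MARVEL family went the other way: MARVELD2 (tricellulin, the protein of contacts where 3 cells meet) had 15.5 and 11.6 FPKM, a change of -0.41, and MARVELD3 had 10.5 and 7.43 FPKM, a change of -0.49. OCLN thus made up 18.7% of the FPKM of these 3 genes in normoxia and 27.2% in hypoxia. A partial copy of OCLN, the pseudogene OCLNP1, lies on the same chromosome (70370052 to 70389020), and how its reads were shared was not tested. F11R, on chromosome 1 (160965001 to 160991133, minus strand), had 60.9 FPKM in normoxia and 67.0 in hypoxia, a change of 0.14. It held 98.6% of the FPKM of the 3 listed JAM genes in both conditions, JAM3 standing at 0.656 and 0.776 FPKM and JAM2 at 0.188 and 0.159 FPKM.

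The 3 plaque genes described here also had higher FPKM in hypoxia. TJP1, on chromosome 15 (29991571 to 30261118, minus strand), had 18.5 FPKM in normoxia and 22.1 in hypoxia. This was a change of 0.26, just inside 1.2-fold as deposited. TJP3, on chromosome 19 (3708360 to 3750811, plus strand), had 0.372 FPKM in normoxia and 0.550 in hypoxia, a change of 0.46 at a level where the added 0.1 matters. The ratio of TJP1 to TJP3 was 49.6 in normoxia and 40.2 in hypoxia. CGN, on chromosome 1 (151482986 to 151511168, plus strand), had 2.02 FPKM in normoxia and 2.66 in hypoxia, a change of 0.38 or 1.30-fold higher, the highest of the 8 genes compared. Of all genes compared, 82.5% had a lower change than CGN and 76.0% a lower one than TJP1. By FPKM the order of these plaque genes was TJP1, CGN and TJP3 in both conditions.

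The 5 genes with more than 1 listed transcript were CLDN7, CLDN12, OCLN, TJP1 and TJP3, and shares shifted little except in TJP3. Of the 15 transcripts, 12 had a mean of at least 0.5 FPKM, with changes from -0.30 (NM_001185022 of CLDN7) to 0.39 (NM_003257 of TJP1), and 0 of these passed 1.5-fold in either direction. Of all 18190 listed transcripts at or above the same limit, 10.5% were higher and 14.3% lower past 1.5-fold. In CLDN7, NM_001185022 held 99.7% of the gene total in normoxia and 99.8% under hypoxia, and NM_001307 stood at 0.348 and 0.169 FPKM, below the limit. In CLDN12, NM_012129 held 77.8% and 81.2%, NM_001185073 held 16.0% and 13.0%, and NM_001185072 held 6.21% and 5.82%. In OCLN, NM_001205254 held 85.0% in normoxia and 88.0% in hypoxia, going from 5.09 to 6.26 FPKM, while NM_002538 stood at 0.897 and 0.851 FPKM. Cufflinks divides reads that fit several transcripts of a gene between them, so these shares are estimates whose error was not analysed here.

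TJP1 was the gene whose transcripts were nearest to equal shares. NM_003257 had 8.59 FPKM in normoxia and 11.3 in hypoxia, a change of 0.39, and NM_175610 had 9.86 and 10.8 FPKM, a change of 0.13. The share of NM_003257 was 46.5% in normoxia and 51.1% in hypoxia, so the order of the transcripts turned over by 4.51 percentage points, and this difference was not tested. NM_003257 codes for the longer ZO-1 form, with the stretch known as the alpha domain, and NM_175610 for the form without it. The GENCODE annotation, which does not pair its transcripts with these RefSeq entries, holds a single coding exon of TJP1 that is skipped between the same neighbouring exons, which 3 coding transcripts carry and 3 leave out, of 8 in all. It is 240 bases or 80 whole codons long and is shown here because, as background, the alpha domain is 80 residues long and matches an exon of this length.
TJP1 exon, GRCh37, chr15:30011981-30012220, minus strand: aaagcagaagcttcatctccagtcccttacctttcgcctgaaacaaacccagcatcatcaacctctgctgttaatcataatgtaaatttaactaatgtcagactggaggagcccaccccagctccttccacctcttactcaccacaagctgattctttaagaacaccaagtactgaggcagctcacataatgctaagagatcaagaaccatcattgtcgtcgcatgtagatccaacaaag

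TJP3 had the largest shift of shares, at values near 0. NM_001267561 had values of 0.371 and 0.384 FPKM, a change of 0.039. NM_001267560 was listed at 0.00136 FPKM under normoxia and at 0.166 under hypoxia, so that its share of the gene went from 0.365% to 30.2%. The higher sum of TJP3 in hypoxia thus came mostly from a transcript listed near 0 in normoxia, and the reads behind it were not analysed here.

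**Figure D4:**
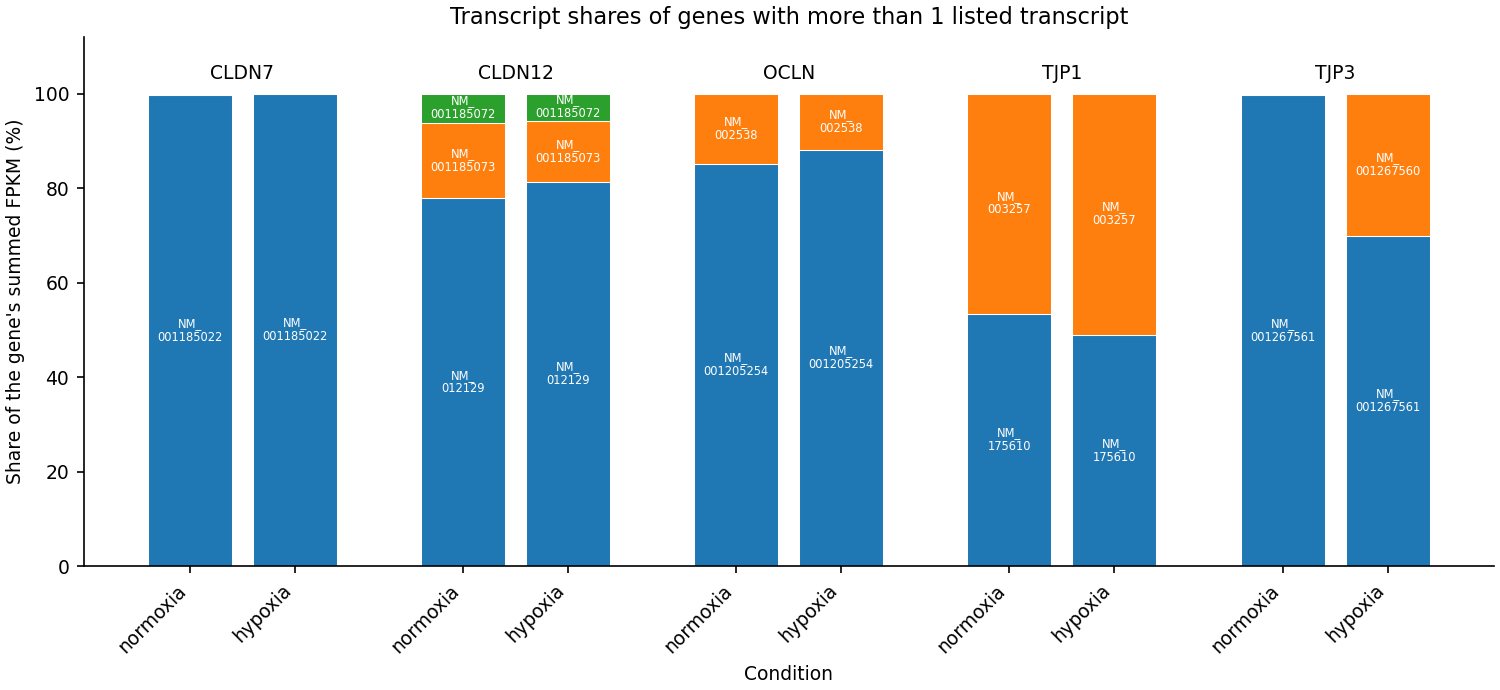
Share (%) of each listed transcript in the summed FPKM of its gene, in normoxia and in hypoxia, for the 5 genes with more than 1 listed transcript; bars are stacked to 100% and segments under 5% carry no name. In TJP1 the transcript NM_003257 goes from 46.5% to 51.1%, and in TJP3, which lies below 0.5 FPKM in normoxia, NM_001267560 goes from 0.365% to 30.2%.

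Neighbouring genes overlap some of these loci in the annotation. CLDN7 shares 38 bases with ELP5 and TJP3 shares 42 bases with APBA3, both on the opposite strand, and unnamed protein-coding models on the same strand share 2187 bases with CLDN7 and 23387 with F11R. The libraries kept strand, but whether strand was used in assigning reads is not given in the sources used here, and how reads from these overlaps were shared was not tested. The CLDN12 gene model also overlaps GTPBP10 and CDK14, but outside the stretch of its 3 listed transcripts (90032648 to 90045268). An unnamed long noncoding RNA model on the same strand shares 109958 of the 129682 bases of the CLDN12 model. An overlap of that length must take in most of this stretch. PTTG1IP2, on the same strand, shares 43759 bases with the CLDN12 model. How reads were shared with these 2 models was not tested.

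The other tight junction genes are a list of 49 chosen for their known place in the junction or its polarity complexes. Like the members, they were chosen with earlier results of these data known. Of the 49, 37 had a listed transcript and 30 a mean of at least 0.5 FPKM. Their median change was 0.28, and 20 of the 30 (66.7%) had a change above 0, beside 43.6% of all genes. Past 1.5-fold, 2 were higher and 1 was lower of the 30, beside 9.95% and 11.2% of all genes. The 2 higher genes were angiomotins, which bind polarity scaffolds at the junction: AMOT had 1.70 FPKM in normoxia and 3.42 in hypoxia, a change of 0.97, and AMOTL2 had 18.7 and 34.3 FPKM, a change of 0.87. CLDN11, a claudin best known from myelin and testis, was the lower one, with 5.67 and 2.86 FPKM, a change of -0.96. The most abundant gene of the list was YBX3, a Y-box transcription factor known to bind ZO-1, with 90.0 FPKM in normoxia and 63.1 in hypoxia, a change of -0.51. With equal sums 11 of the same 30 genes were higher past 1.5-fold, where 18.2% of all genes were, and with quantile normalization 4 were, where 11.6% of all genes were.

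**Figure D5:**
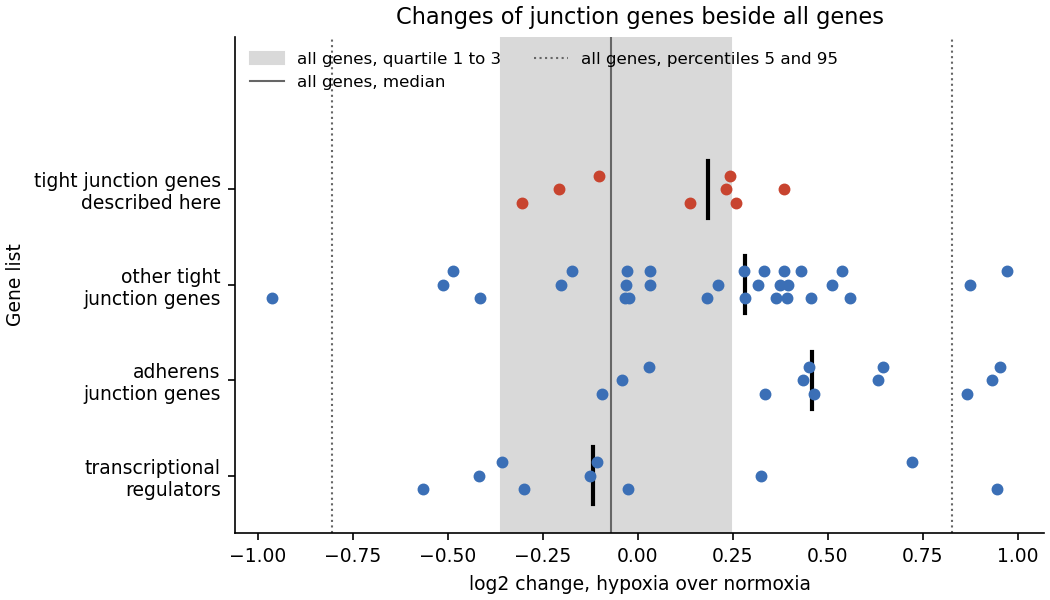
log2 change (hypoxia over normoxia, as deposited) of each gene with a mean of at least 0.5 FPKM in 4 lists, with points for genes and black bars for list medians; the grey band spans the middle 50% of all 12106 genes, from -0.36 to 0.24, and the dotted lines mark percentiles 5 and 95, at -0.80 and 0.83. All 8 tight junction genes described here lie between the dotted lines, and 2 of them, CGN and TJP1, lie above the grey band.

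Promoter windows were searched for motifs of factors that act in hypoxia or on junction genes. RefSeq windows of 300 bases (250 before to 50 after a start, GRCh38.p14) were found for 8 of the 9 genes, 14 windows in all, and F11R had no entry. The core of the hypoxia response element was searched as ACGTG or GCGTG on both strands, with overlapping matches counted once. It was present in 10 of the 14 windows (71.4%), from 6 of the 8 genes, and in 48.4% of the 35116 windows of all genes. CLDN4 and CLDN12 had no match in these windows. The E-box bound by Snail and ZEB repressors, searched as CACCTG on both strands, was present in 5 of the 14 windows (35.7%) and in 20.6% of all. These windows came from 4 of the 8 genes. Windows of 1 gene are not independent: the 2 OCLN windows overlap, both with E-box matches, and TJP1 supplies 4 windows. The share of all genes with a match was not computed for either motif. Of the 2 CLDN7 windows, 1 held no match and the other held 5, a number reached by 0.0940% of all windows. In the latter, the 250 bases before the start, chr17:7262479-7262728 on the minus strand, hold 4 of the matches and are shown with the matches in capitals, chosen after the counts were seen.
CLDN7 promoter 2 of 2: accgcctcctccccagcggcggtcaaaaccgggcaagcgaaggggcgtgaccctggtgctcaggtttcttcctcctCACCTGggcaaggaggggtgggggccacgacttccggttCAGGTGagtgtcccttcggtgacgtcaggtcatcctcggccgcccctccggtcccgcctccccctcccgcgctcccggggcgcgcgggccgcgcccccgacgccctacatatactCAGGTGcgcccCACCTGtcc
A match describes the letters and not a bound site, and which listed transcript starts at this window was not analysed.

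The labels were checked on genes outside the junction. All 7 listed genes of a hypoxia check list of 8 (LDHA had no listed transcript) were higher in hypoxia past 2-fold: the log2 change was 1.02 for VEGFA, 1.36 for SLC2A1, 1.55 for ADM, 1.73 for PDK1, 2.83 for BNIP3, 4.77 for CA9 and 5.58 for NDRG1. Of 7 epithelial markers, 6 were listed and KRT14 was not. KRT5 had 398 and 442 FPKM, EPCAM 317 and 233 FPKM and CDH1 61.1 and 82.6 FPKM. KRT6A was lower past 1.5-fold, at 5.10 and 3.26 FPKM. Fibroblast markers reached at most 0.126 FPKM (LUM, with COL3A1 listed too), and COL1A1 and DCN had no listed transcript. Of the endothelial markers, CDH5 was listed at 4.78 and 2.83 FPKM, lower past 1.5-fold, while PECAM1, VWF and CLDN5 had no listed transcript. Of the leukocyte markers CD68 was listed at 2.36 and 2.86 FPKM and PTPRC and CD3E were not listed. In any list here, a gene without a listed transcript cannot be taken as not expressed. LDHA, KRT14 and CTNND1, a catenin gene of the adherens junction list, also had none, and the reason was not tested.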

How the data were processed

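Polyadenylated RNA of SQ20B cells, 4 libraries in normoxia and 4 in hypoxia, was grouped by the source labels; the hypoxia treatment text is repeated in the labels of the normoxia libraries. The authors made stranded libraries, aligned reads to hg19 with RefSeq annotation with STAR 2.3.0.1 and ran Cufflinks 2.1.1 with its standard settings. The deposited values used are FPKM, 1 per transcript and condition, made by the authors over the replicates. The number of reads behind each value was not analysed here. The paper states a read number aimed at for each sample and an average of uniquely aligned reads, but no depth for single libraries. FPKM can shift for every gene when a few abundant transcripts change, and low values depend on how reads were divided between transcripts. The other columns hold the authors' own comparison (log2 fold change, test statistic, p-value and q-value) and were not used.

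RefSeq identifiers were paired with symbols through the GRCh38.p14 annotation (24293 of 24812 entries, 97.9%), used with its promoter sequences only. Other coordinates are GRCh37, from GENCODE, counted from 1. FPKM was summed per gene, 0.1 was added before taking log2 ratios, and genes with a mean below 0.5 FPKM were left out of counts. Past a limit means at least 1.5-fold unless stated. Alternatives were pseudocounts of 0 and 1, no FPKM limit or 1 FPKM, equal column sums, median centring, quantile normalization, the most abundant transcript alone, and limits of 1.2-fold and 2-fold. Members and lists were chosen with earlier results of these data known. The genes named are the 9 members and, of each list, those past 1.5-fold at 0.5 FPKM and the most abundant one; other genes are named for context, as family relatives or markers. The code was tested on simulated data. Python 3.11.15 with numpy 2.4.6, pandas 2.3.3 and matplotlib 3.10.9 was used.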

Additional observations from a re-analysis of the deposited data

How the results depend on the processing

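No paired analysis was possible because the table holds 1 value per condition, and leaving out single replicates could not be run for the same reason. The reported counts of tight junction genes past 1.5-fold (0 higher and 0 lower of 8) held under the other pseudocounts and FPKM limits, median centring, quantile normalization, the most abundant transcript and the limit of 2-fold. With equal sums 1 gene, CGN, was higher, where 18.2% of all genes were. With a limit of 1.2-fold 1 was higher and 1 lower as deposited, where 23.8% and 33.0% of all genes were. At that limit 4 were higher and 0 lower with median centring, beside 3440 and 3266 of 12106 genes. With equal sums 5 were higher and 0 lower, beside 4839 and 1984 of all genes. Quantile normalized, 5 were higher and 0 lower, beside 3354 and 3023 of all genes. The direction turned for CLDN1 (0.017 with equal sums, 0.070 quantile normalized) and CLDN4 (0.12 and 0.051). The count of genes above 0 went from 5 to 7 of 8 under both. The share of all genes above 0 went from 43.6% to 63.7% with equal sums and 51.4% quantile normalized. The other tight junction genes past 1.5-fold were 2 higher and 1 lower of 30. Without an FPKM limit they were 5 and 2 of 37, and the share of all genes was then not computed. With a limit of 1.2-fold they were 16 and 4 of 30, where 23.8% and 33.0% of all genes were. With a limit of 2-fold they were 0 and 0, beside 388 and 317 of all 12106 genes. The higher count was 12 with equal sums, of the 31 genes then at or above the limit. Among all genes at the limit as deposited, 18.2% were higher with equal sums. The higher count was 4 with median centring or quantile normalization, beside 1499 and 1401 of 12106 genes. The limit of 0.5 FPKM on transcripts could not alter the TJP1 shares, since both of its transcripts lie far above it. Depths were not analysed here, so no detection limit is given.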

Other observations

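The adherens junction lies next to the tight junction and joins cells through cadherins, catenins and nectins. Of 13 genes in a list of its members, 12 had a mean of at least 0.5 FPKM, with a median change of 0.46 beside 0.19 for the 8 tight junction genes. A change above 0 was found for 10 of the 12, beside 43.6% of all genes. Past 1.5-fold 5 were higher and 0 lower, where 9.95% and 11.2% of all genes were. AFDN (afadin, which links nectins to actin and binds ZO-1) had 18.4 FPKM in normoxia and 35.3 in hypoxia, a change of 0.93. JUP (plakoglobin) had 4.08 and 7.99 FPKM (0.95), NECTIN4 1.77 and 3.32 FPKM (0.87), NECTIN1 5.80 and 9.12 FPKM (0.65) and CDH3 (P-cadherin) 42.4 and 65.7 FPKM (0.63). The most abundant gene, CTNNB1 (beta-catenin), had 192 and 187 FPKM, a change of -0.04. With equal sums 8 were higher past 1.5-fold, where 18.2% of all genes were, and with quantile normalization 7, where 11.6% of all genes were. All 12 had a change above 0 under either scaling, beside 63.7% of all genes with equal sums and 51.4% quantile normalized. The difference between the junction lists was not tested, and the lists were chosen with earlier results of these data known.

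Of 15 transcription factors known to act on epithelial junction genes, 10 had a mean of at least 0.5 FPKM, with a median change of -0.12 beside -0.07 over all genes. With equal sums this median was 0.11 and with quantile normalization 0.023, beside 0.15 and 0.015 over all genes. Past 1.5-fold, 2 of the 10 were higher and 0 were lower, where 9.95% and 11.2% of all genes were. GRHL1 had 5.48 FPKM in normoxia and 10.6 in hypoxia (0.95), and OVOL1 had 1.46 and 2.48 FPKM (0.72). GRHL2, a relative of GRHL1 known to keep claudin and cadherin genes active in epithelia, had 31.7 and 21.4 FPKM, a change of -0.57 or 1.48-fold lower, just inside the limit. SNAI2, a repressor that binds the E-box searched in the promoters, had 31.2 and 28.9 FPKM (-0.11), and SNAI1 had no listed transcript. The most abundant gene of the list was EHF, with 74.6 and 60.6 FPKM (-0.30).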
